A study of Mus musculus with 8 samples.

Results

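Interferon genes were followed in mouse mammary tumors treated on the skin with calcipotriol, a vitamin D analog, or with its solvent. The 46 genes were chosen by name, as a list of symbols, out of the 55414 genes of the count table, and each symbol matched 1 row. There were 2 interferon ligands, 4 interferon receptor chains, 4 signal transducers and regulatory factors, 4 nucleic acid sensors and 32 induced genes. Among the induced genes, 11 of the Ifit, Oas, Oasl and Mx families formed a type I-biased class, and 9 guanylate-binding proteins (Gbp) and immunity-related GTPases (Irgm1, Irgm2, Igtp and Iigp1) formed an interferon-gamma-biased class. The other 12 were left as a mixed group.

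All 8 tumors grew from the PyMt line, a single line derived from a transgenic MMTV-PyMt mouse with mammary tumors, in which the mouse mammary tumor virus promoter drives the polyoma middle T oncogene. The cells were implanted into the mammary fat pad of WT female C57BL/6 mice aged 6 to 8 weeks. From day 2 after implantation, 20 nmol of calcipotriol in EtOH (4 tumors) or EtOH alone (4 tumors) was applied over the tumor site every 2 days, and tumors were taken 24 hours after the last dose. The labels give the cell type as epithelial, but RNA came from whole tumors, with the stroma, vessels and immune cells of the host. In such bulk RNA, fewer cells of a type and less RNA per cell cannot be told apart. The study's methods call the 4 tumors of a group biological replicates, the labels do not say whether each came from its own mouse, and p-values here measure the spread between these samples.

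Type I interferons signal through the receptor chains IFNAR1 and IFNAR2 to a complex that includes STAT2 and IRF9 and binds the interferon-stimulated response element (ISRE). Interferon-gamma, made mainly by T and NK cells, signals through IFNGR1 and IFNGR2 to the gamma-activated site (GAS) of its target genes and induces IRF1, a factor that binds ISRE-like sites. Many genes answer both, so the class names mark a bias and not a specific inducer. In tumors, interferon-gamma is known for raising antigen presentation and T cell-attracting chemokines.

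Promoter windows from RefSeq (GRCm38.p6, 250 bases before to 50 after the start) were found for 35 of the 46 genes, and the remaining 11 were Oas2, Iigp1, Rtp4, Parp9, Mx1, Gbp4, Usp18, Mx2, Dhx58, Zbp1 and Parp14. The ISRE core, 2 copies of GAAA separated by any 2 bases and searched on both strands, was present in the windows of 19 of 35 members, against 3.99% of all 27025 genes with a window. It was found in 7 of 7 interferon-gamma-biased and 5 of 8 type I-biased windows, and in none of the 4 receptor windows. The GAS letters TTCNNNGAA, which read the same on both strands and can overlap an ISRE core, were present in 12 of 35 members (4 of 7 interferon-gamma-biased and 2 of 8 type I-biased windows), against 9.55% of genes. Thus these letters did not separate the classes, and a match describes the window and is not a measured binding site. The stretches below come from members whose levels are described further on, with the ISRE core in capitals and each read 5′ to 3′ on the gene's own strand. The capitals read the core or its reverse complement, and overlapping matches run together.
Gbp2: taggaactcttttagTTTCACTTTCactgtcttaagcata
Irgm1: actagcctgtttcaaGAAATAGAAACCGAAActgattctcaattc
Irgm2: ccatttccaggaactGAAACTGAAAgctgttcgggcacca
Igtp: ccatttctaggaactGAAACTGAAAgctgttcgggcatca
Ifit1: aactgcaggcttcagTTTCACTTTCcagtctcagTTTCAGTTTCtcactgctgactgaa
Ifit3: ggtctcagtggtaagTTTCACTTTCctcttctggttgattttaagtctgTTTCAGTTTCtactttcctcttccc
Oas3: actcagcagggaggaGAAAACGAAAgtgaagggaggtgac
Isg15: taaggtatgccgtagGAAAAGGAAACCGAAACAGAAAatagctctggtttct
Their positions in GRCm38 are Gbp2, chr3:142620589-142620628 (plus strand), Irgm1, chr11:48871421-48871465 (minus strand), Irgm2, chr11:58214898-58214937 (plus strand), Igtp, chr11:58199507-58199546 (plus strand), Ifit1, chr19:34640770-34640828 (plus strand), Ifit3, chr19:34583358-34583431 (plus strand), Oas3, chr5:120777710-120777749 (minus strand) and Isg15, chr4:156200860-156200911 (minus strand). The Irgm2 and Igtp stretches, from neighbouring genes, were identical at 38 of 40 bases, and both windows also held a GAS match, which began 75 bases before the start in Irgm2 and 45 in Igtp. The Ifit3 stretch was identical to that of its neighbour Ifit3b at 74 of 74 bases.

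Between 19685419 and 25084713 reads were assigned to genes per tumor, as estimated counts that were rounded. Of the 55414 genes, 14458 had enough counts for a test with edgeR, and a gene was called where the Benjamini-Hochberg adjusted p was under 0.05 and the log2 fold change (calcipotriol over EtOH) was at least 1 in size. Levels are counts scaled to library size (CPM), given in the order EtOH replicates 1 to 4 and calcipotriol replicates 1, 5, 6 and 7. The labels give no batch. Calcipotriol replicate 1 stood apart from the other 3, and EtOH replicates 1 and 2 stood apart from 3 and 4 (skeletal muscle markers summed to 5.64, 5.31, 49.2 and 57.4 CPM, and the epithelial marker Epcam had 0, 0, 106 and 65 counts). Log2 fold changes without calcipotriol replicate 1 are therefore given as well. The luminal keratins Krt8 and Krt18 had reads in every tumor, at 259.7 to 665 CPM.

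Most interferon genes were higher in the calcipotriol-treated tumors than in the EtOH-treated tumors by their fitted values, but 1 passed the test. Of 44 members that passed the filter on low counts, 37 had a positive log2 fold change (84.1%), against 52.1% of all genes tested. The median was 0.73 over the 44 and 0.02 over all genes tested. Iigp1 was called higher, and no member was called lower, against 1.07% and 0.948% of genes tested. With no minimum fold these were the same 1 and 0, against 1.37% and 1.37% of genes. At an unadjusted p under 0.05 there were 17 members higher (38.6%) and 1 lower (2.27%), against 8.56% and 9.84% of genes. The groups did not overlap for 9 higher members and 1 lower member, against 6.32% and 6.16% of genes.

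**Figure D1:**
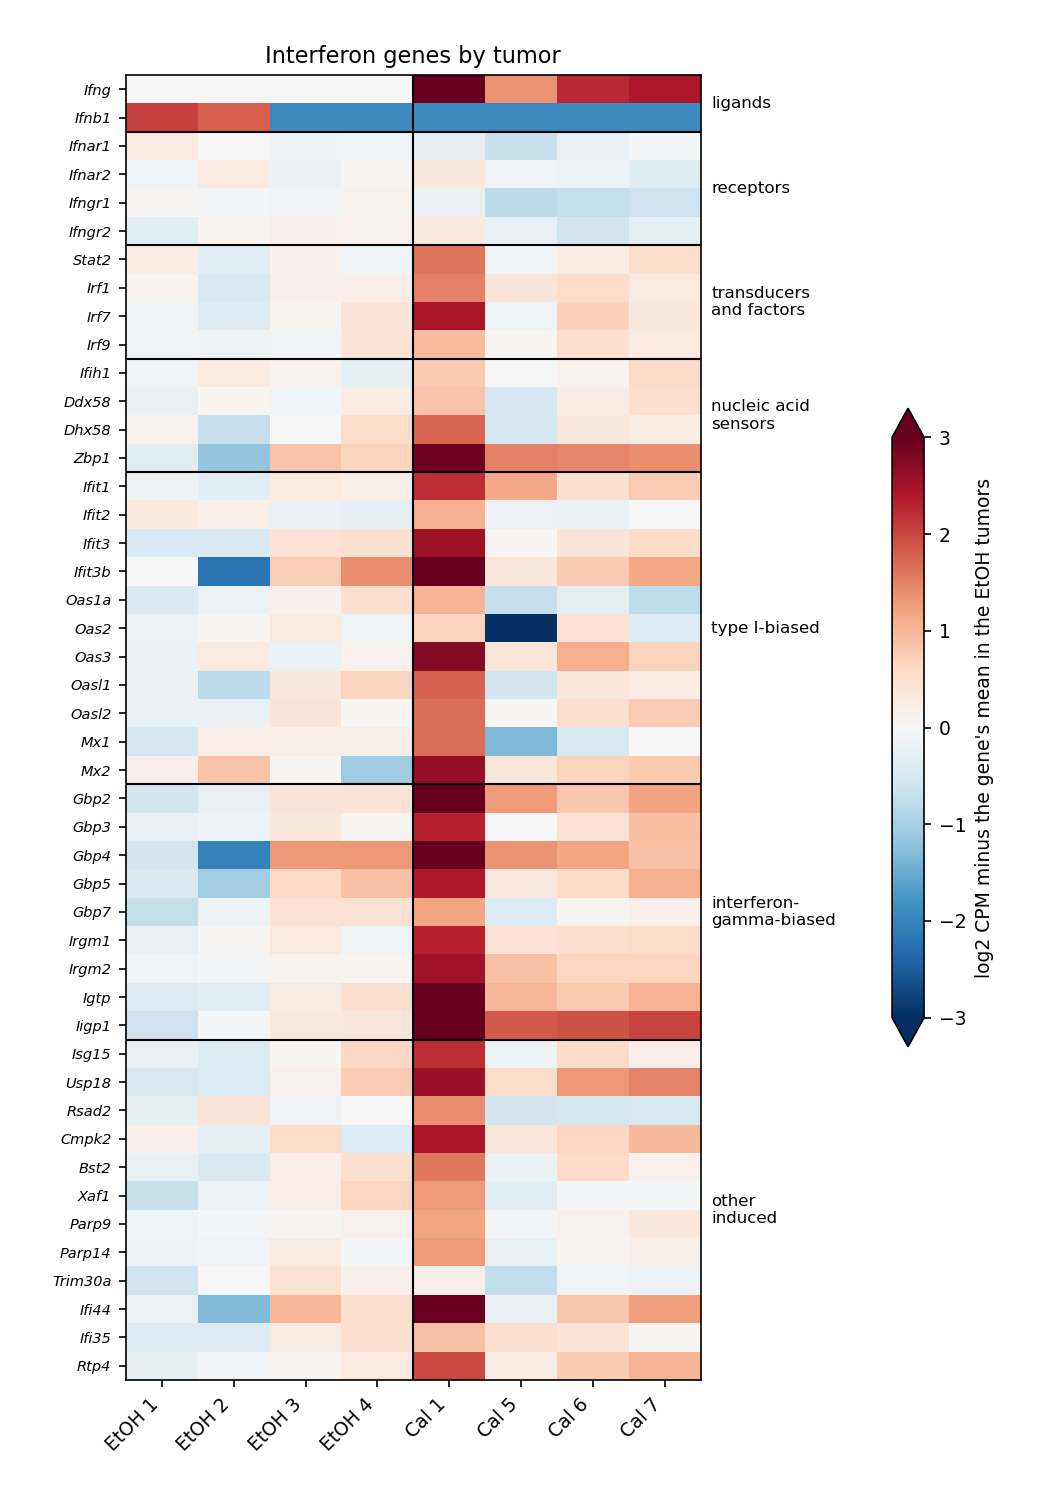
Level of the 46 interferon genes (rows, by role) in the 8 tumors (columns; EtOH replicates 1 to 4, calcipotriol replicates 1, 5, 6 and 7), as log2 CPM minus the gene's mean over the EtOH-treated tumors, with the color scale ending at 3 in both directions. The column of calcipotriol replicate 1 is the reddest for most rows, and Iigp1 and Zbp1 are red in all 4 calcipotriol-treated tumors.

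How many members passed depended on the test, on the filter and on single tumors. DESeq2 called 10 members higher (Gbp2, Ifit1, Igtp, Iigp1, Irgm1, Irgm2, Oas3, Rtp4, Usp18 and Zbp1), against 2.18% of genes tested. With no minimum fold it added Ifngr1 as lower, against 3.72% of genes higher and 4.59% lower. In limma-voom Iigp1 alone was called, against 0.865% of genes. Without the filter on low counts edgeR called 7 members higher, against 1.04% of genes, or 1.36% with any fold. None of these fits called a member lower, against 2.25% of genes in DESeq2, 1.03% in limma-voom, 0.888% without the filter (1.3% with any fold) and 2.7% without calcipotriol replicate 1. Without calcipotriol replicate 1, edgeR called Iigp1 and Gbp2 higher, against 1.62% of genes. With no minimum fold, Irgm2 was added as higher and Ifngr1 as lower, against 2.33% and 4.39% of genes. The members with a positive log2 fold change then numbered 30 of 44, against 52.0% of genes, and the median was 0.27. Conversely, leaving out EtOH replicate 1, 2 or 3 left no member called, against 0.573%, 0.478% and 0.605% of genes called higher, with adjusted p for Iigp1 between 0.0548 and 0.0695.

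The ligands had few counts and were removed by the filter. Ifng, which encodes interferon-gamma, was at 0 counts in 4 of 4 EtOH-treated tumors, while calcipotriol-treated tumors had 34, 3, 7 and 9 counts. Reads for it were therefore found in 4 of 4 calcipotriol-treated and 0 of 4 EtOH-treated tumors, with 64.2% of them in replicate 1. Calcipotriol replicate 5 was only at the limit of 3 counts. With counts pooled over each group, Ifng was 17.1-fold above a limit of 3 counts for the EtOH group, and 8.45-fold without calcipotriol replicate 1. These ratios of pooled counts leave out the spread between tumors, so they are no lower bound for the treatment. Over the 70 ways to divide the tumors, an exact permutation test (two-sided) gave p = 0.0286, the smallest it can give, and 0.0571 after adjustment over both ligands. Of the 50-base stretches of Ifng, 19.9% also occur in the overlapping gene Gm49751, so part of these counts may have been divided between the 2 genes. Ifnb1, which encodes interferon-beta, had 27, 22, 0 and 0 counts in the EtOH-treated tumors and 0 in every calcipotriol-treated tumor. Its counts came from EtOH replicates 1 and 2 alone (exact permutation p = 0.429).

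Receptor chains did not share the direction of the induced genes, since 4 of 4 had a negative log2 fold change and the median was -0.23. Ifngr1, the ligand-binding chain for interferon-gamma, was at 73, 68.3, 67.4 and 76.2 CPM with EtOH and 61.5, 41.5, 43.3 and 46 CPM with calcipotriol. The calcipotriol-treated tumors were all below the EtOH-treated tumors, with replicate 1 nearest to them. The log2 fold change was -0.57 (SE 0.14, adjusted p = 0.0668), with a 95% interval of -0.88 to -0.25, and -0.71 (SE 0.12, adjusted p = 0.00911) without calcipotriol replicate 1, where it passed the adjusted threshold but not the fold minimum. Ifngr2, the signalling chain, was at 72.6, 95.4, 101 and 99.5 CPM with EtOH and 113, 78.1, 62.4 and 75.2 CPM with calcipotriol. These groups overlapped, and the log2 fold change was -0.16 (SE 0.19, adjusted p = 0.697), and -0.36 without calcipotriol replicate 1. For the type I receptor, Ifnar1 was at 92.8, 78.3, 69 and 70.4 CPM with EtOH and 64.4, 48.4, 65 and 75.4 CPM with calcipotriol, and its log2 fold change was -0.29 (SE 0.16, adjusted p = 0.353), and -0.30 without replicate 1. The log2 fold change of Ifnar2 was -0.07 (SE 0.17, adjusted p = 0.875), or -0.22 without replicate 1, and its sign turned when EtOH replicate 2 or calcipotriol replicate 7 was left out.

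Transducers and regulatory factors were all higher with calcipotriol by their fitted values, with none past the test and a median of 0.73, or 0.29 without calcipotriol replicate 1. Irf1, a factor that interferon-gamma induces, was at 41.8, 28.1, 42.7 and 44.1 CPM with EtOH and 109, 50.7, 56.2 and 47.4 CPM with calcipotriol. Each calcipotriol-treated tumor was above each EtOH-treated tumor, by a narrow margin for replicate 7. Irf1 had a log2 fold change of 0.75 (SE 0.27, adjusted p = 0.171), and 0.39 without calcipotriol replicate 1. Irf7, the factor that amplifies type I interferon production, was at 17.3, 14.4, 20.5 and 25 CPM with EtOH and 103, 17.2, 30.5 and 23.9 CPM with calcipotriol. Here replicate 1 was far above the rest and the other calcipotriol-treated tumors lay near the EtOH range, with a log2 fold change of 1.18 (SE 0.49, adjusted p = 0.236) that was 0.31 without replicate 1. Irf9, the DNA-binding part of the type I complex, was at 17.5, 17.1, 17.5 and 25.4 CPM with EtOH and 37.1, 20.1, 26.9 and 23.3 CPM with calcipotriol, with overlapping groups and a log2 fold change of 0.47 (SE 0.22, adjusted p = 0.287) that was 0.27 without replicate 1. Its partner Stat2 had a log2 fold change of 0.71 (SE 0.34, adjusted p = 0.293), and 0.23 without replicate 1.

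Of the 4 nucleic acid sensors, Zbp1 stood apart. Zbp1, a sensor of Z-form nucleic acid linked to necroptosis, was at 6.23, 3.41, 14.2 and 12.6 CPM with EtOH and 60.3, 22.7, 21.8 and 20.8 CPM with calcipotriol. All calcipotriol-treated tumors were above the EtOH range, replicates 5, 6 and 7 lay close together, and EtOH replicates 3 and 4 were above 1 and 2. Its log2 fold change was 1.78 (SE 0.48, adjusted p = 0.0812), and 1.25 (SE 0.41, adjusted p = 0.104) without calcipotriol replicate 1, so that it missed the adjusted threshold either way. Ddx58, which encodes the RNA sensor RIG-I, was at 19.3, 23.5, 21.1 and 26.7 CPM with EtOH and 40.5, 15.8, 26.5 and 31.8 CPM with calcipotriol, with a log2 fold change of 0.34 (SE 0.25, adjusted p = 0.519) that was 0.13 without calcipotriol replicate 1. Ifih1, which encodes the RNA sensor MDA5, and Dhx58, which encodes their relative LGP2, had log2 fold changes of 0.38 and 0.64 (adjusted p = 0.396 and 0.514). Without replicate 1 these were 0.23 for Ifih1 and -0.0013 for Dhx58, so that the Dhx58 difference rested on that tumor.

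Within the type I-biased class none of 11 genes was called by edgeR, with 4 higher at an unadjusted p under 0.05 (against 8.56% of genes), while DESeq2 called Ifit1 and Oas3 (against 2.18%). Their median log2 fold change was 0.86, or 0.28 without calcipotriol replicate 1, where 6 genes were positive and Ifit2, Oas1a, Oas2, Oasl1 and Mx1 were negative. Calcipotriol replicate 1 held the highest of the 8 levels for 11 of 11 genes. The spread of the fitted changes ran from -0.08 for Oas2 to 1.58 for Oas3.

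Ifit1, an inhibitor of the translation of viral RNA, was at 7.44, 6.57, 10.1 and 9.26 CPM with EtOH and 38.5, 18.1, 11.6 and 14 CPM with calcipotriol. Ifit1 and Oas3 were the type I-biased genes whose groups did not overlap. For Ifit1 the log2 fold change was 1.3 (SE 0.36, adjusted p = 0.0829), and 0.80 (SE 0.24, adjusted p = 0.0788) without replicate 1. Ifit3, of the same family, was at 10.9, 10.8, 20.2 and 20.9 CPM with EtOH and 87.3, 15.6, 19.6 and 21.8 CPM with calcipotriol. In Ifit3, replicates 5, 6 and 7 lay near EtOH replicates 3 and 4, and the log2 fold change of 1.2 (SE 0.52, adjusted p = 0.255) was 0.28 without replicate 1. Ifit3 and its copy Ifit3b share 51.2% of the 50-base stretches of Ifit3, so the split of reads between them is uncertain, and with both summed to 1 row the class median was 0.74.

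The Oas family makes the messenger that activates RNase L. Oas3 was at 1.95, 2.73, 1.94 and 2.47 CPM with EtOH and 15.8, 2.92, 4.9 and 3.6 CPM with calcipotriol. Its groups did not overlap, although calcipotriol replicate 5 was just above EtOH replicate 2, and the log2 fold change was 1.58 (SE 0.53, adjusted p = 0.143), and 0.75 without replicate 1. Oas2 was low throughout and lowest in calcipotriol replicate 5, at 1.9, 2.19, 2.59 and 1.98 CPM with EtOH and 3.46, 0.183, 2.93 and 1.61 CPM with calcipotriol, and its log2 fold change of -0.08 (SE 0.68, adjusted p = 0.963), or -0.46 without calcipotriol replicate 1, turned positive without EtOH replicate 3, calcipotriol replicate 5 or calcipotriol replicate 7. Oasl2, a ubiquitin-like relative, was at 16, 16.1, 24.6 and 19.6 CPM with EtOH and 60.5, 19.3, 26.7 and 31.9 CPM with calcipotriol, with a log2 fold change of 0.86 (SE 0.32, adjusted p = 0.184) that was 0.45 without replicate 1. The remaining type I-biased genes had log2 fold changes of -0.02 to 1.33, and the value of Oas1a is uncertain because 57.6% of its 50-base stretches also occur in Oas1g.

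The interferon-gamma-biased class held Iigp1, the member that was called, and lay above the type I-biased class in each calcipotriol-treated tumor when both were set against their EtOH means. Of its 9 genes, 9 had a positive log2 fold change, 7 had an unadjusted p under 0.05, against 8.56% of genes. The groups did not overlap for 5 of the 9 (Gbp2, Irgm1, Irgm2, Igtp and Iigp1), against 6.32% of genes. The median log2 fold change was 1.43, or 0.61 without calcipotriol replicate 1, beside 0.02 over all genes in both fits.

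Iigp1 (ENSMUSG00000054072, chromosome 18 in GRCm38), a GTPase that attacks the vacuoles of intracellular pathogens, rose, with the largest log2 fold change of the 44. Its level was 8.61, 12.8, 16.6 and 16.9 CPM with EtOH and 217, 47.5, 50.1 and 54.6 CPM with calcipotriol. Every calcipotriol-treated tumor was above the EtOH range, replicates 5, 6 and 7 lay close together, and replicate 1 was 3.97 times the next highest tumor. The mean was 13.7 ± 3.91 CPM with EtOH (SD, n = 4) and 92.4 ± 83.3 CPM with calcipotriol (SD, n = 4), or 50.8 ± 3.61 CPM over replicates 5, 6 and 7. The log2 fold change was 2.75 (SE 0.51, adjusted p = 0.0226), with a 95% interval of 1.62 to 3.87. Without calcipotriol replicate 1 the estimate was smaller and its error too, at 1.88 (SE 0.23, adjusted p = 0.00178), with an interval of 1.38 to 2.39.

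The other 3 immunity-related GTPases also had groups that did not overlap, with replicate 1 highest. Irgm1, Irgm2 and Igtp are regulatory members of this GTPase family. Igtp was at 9.44, 9.98, 14.9 and 17.8 CPM with EtOH and 100.04, 25.2, 21.7 and 26.1 CPM with calcipotriol. The log2 fold change of Igtp was 1.73 (SE 0.48, adjusted p = 0.0861), and 0.90 (SE 0.24, adjusted p = 0.0524) without calcipotriol replicate 1. Irgm2, whose EtOH-treated tumors lay closest together among the 4 GTPases, was at 8.61, 8.96, 9.68 and 9.66 CPM with EtOH and 53.3, 17.1, 14.5 and 14.5 CPM with calcipotriol. Its log2 fold change was 1.43 (SE 0.40, adjusted p = 0.0903), and 0.74 (SE 0.18, adjusted p = 0.0393) without replicate 1, past the adjusted threshold but under the fold minimum. Igtp and Irgm2 overlap on chromosome 11 and share 11.8% of the 50-base stretches of Igtp, so their values are not independent. Irgm1 was at 16.3, 19.9, 23.9 and 18.2 CPM with EtOH and 97.9, 26, 27 and 28.2 CPM with calcipotriol, and its log2 fold change of 1.19 (SE 0.41, adjusted p = 0.157) was 0.47 without replicate 1.

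Guanylate-binding proteins coat pathogen vacuoles and promote inflammasome activation. Gbp2 was at 24.4, 30.03, 46.7 and 46.9 CPM with EtOH and 316, 86, 62.7 and 81.9 CPM with calcipotriol. All calcipotriol-treated tumors were above the EtOH range, and EtOH replicates 3 and 4 were above 1 and 2. Gbp2 had a log2 fold change of 1.88 (SE 0.49, adjusted p = 0.0705), and 1.05 (SE 0.24, adjusted p = 0.0294) without calcipotriol replicate 1, where Gbp2 was called. Gbp3 was at 13.8, 14.4, 20.9 and 17.3 CPM with EtOH and 80.9, 16.1, 22.1 and 30.5 CPM with calcipotriol, where replicate 5 lay within the EtOH range. Its log2 fold change was 1.17 (SE 0.43, adjusted p = 0.187), and 0.46 without replicate 1. Gbp4 was at 1.22, 0.389, 4.7 and 4.72 CPM with EtOH and 42.7, 4.84, 4.33 and 3.48 CPM with calcipotriol. Its replicate 1 was at 8.83 times the next highest calcipotriol-treated tumor, the largest such ratio among the 44. The log2 fold change of 2.32 (SE 0.95, adjusted p = 0.229) was 0.61 without it, and Gbp4 overlaps Gbp8 and Gbp9, so that its reads may be divided among them. Gbp7 had the smallest log2 fold change of the class, at 11.1, 16.5, 24.9 and 25.2 CPM with EtOH and 42.1, 13.9, 19.5 and 20.4 CPM with calcipotriol. Its log2 fold change of 0.31 (SE 0.36, adjusted p = 0.700) was -0.11 without replicate 1, and 12.7% of its 50-base stretches also occur in other genes, chiefly in the overlapping Gm43802. Gbp5, the remaining member, had a log2 fold change of 1.16 (SE 0.55, adjusted p = 0.292), and 0.50 without replicate 1.

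**Figure D2:**
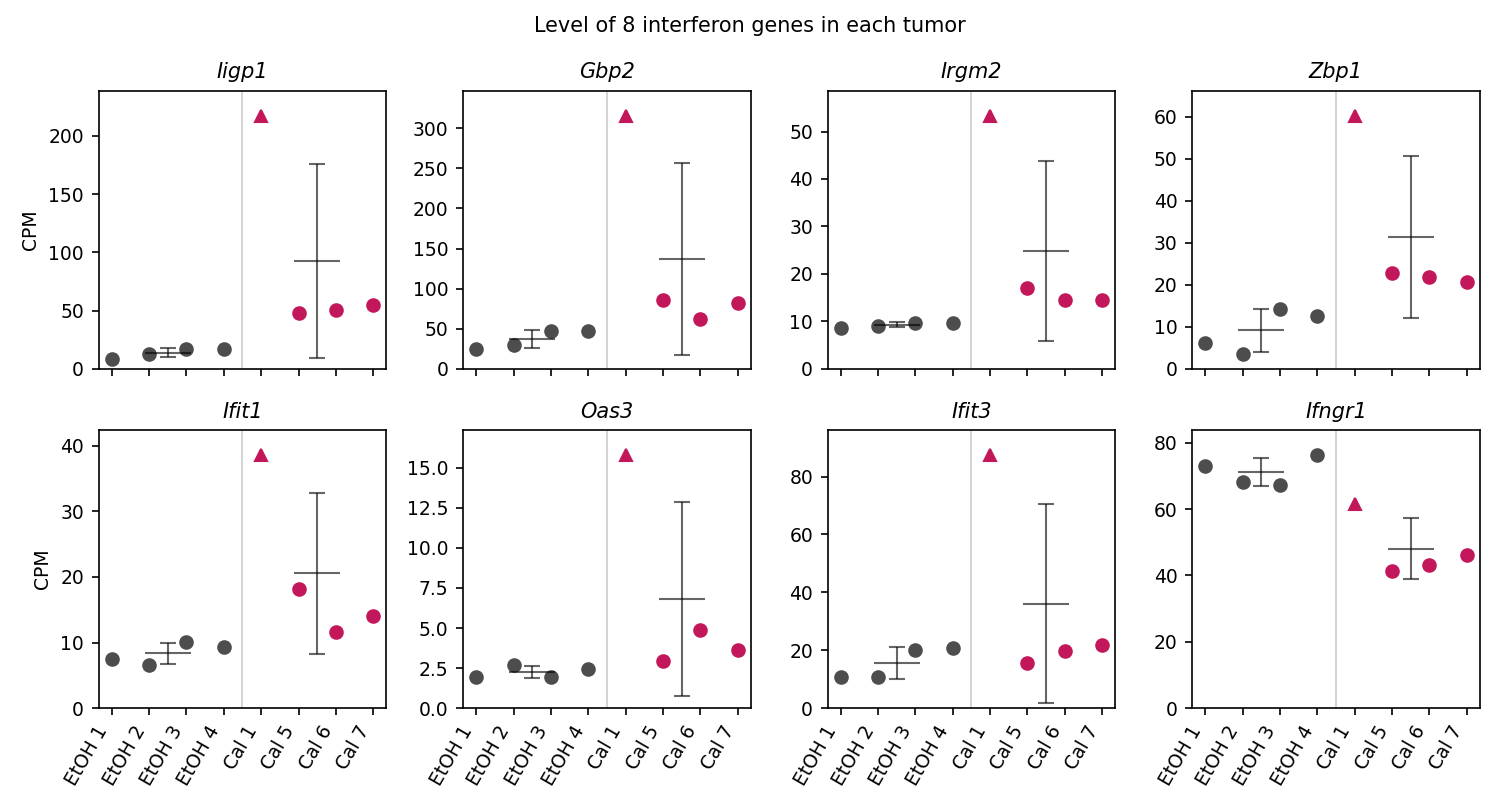
CPM (vertical axes, from 0) of 8 interferon genes in each tumor, with EtOH-treated tumors in gray, calcipotriol-treated tumors in red, calcipotriol replicate 1 as a triangle, and the group mean and SD (n = 4) as a bar with caps. Iigp1, Gbp2, Irgm2, Zbp1, Ifit1 and Oas3 are higher in all 4 calcipotriol-treated tumors than in any EtOH-treated tumor, Ifit3 is high in replicate 1 alone, and Ifngr1 is lower in all 4.

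The contrast of the classes was then read in each tumor. For each gene the log2 CPM was set against its mean over the EtOH-treated tumors, and the values were averaged over the class. The type I-biased mean was -0.17, -0.24, 0.22 and 0.19 in the EtOH-treated tumors and 1.92, -0.32, 0.34 and 0.34 in the calcipotriol-treated tumors. Replicate 1 was high, replicate 5 was below the EtOH range, and replicates 6 and 7 were just above it. The mean of replicate 5 included Oas2 at -3.04, from 4 counts. Its place below the EtOH range thus rests on that gene, which was near the limit of 3 counts. With Oas2 left out, the mean of replicate 5 lies inside the EtOH range. The same value widens the class difference given below for that tumor. The interferon-gamma-biased mean was -0.43, -0.45, 0.45 and 0.44 with EtOH and 2.82, 0.74, 0.77 and 0.94 with calcipotriol. All 4 calcipotriol-treated tumors were above the EtOH range by this measure. The difference between the classes within a tumor, interferon-gamma-biased minus type I-biased, was -0.26, -0.21, 0.23 and 0.24 with EtOH and 0.90, 1.06, 0.42 and 0.60 with calcipotriol, so that the groups did not overlap and replicate 1 lay inside the range of the other 3. These are descriptions of classes chosen with results known, and no test was made on them. The mean over all genes tested stayed between -0.05 and 0.11 in every tumor.

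**Figure D3:**
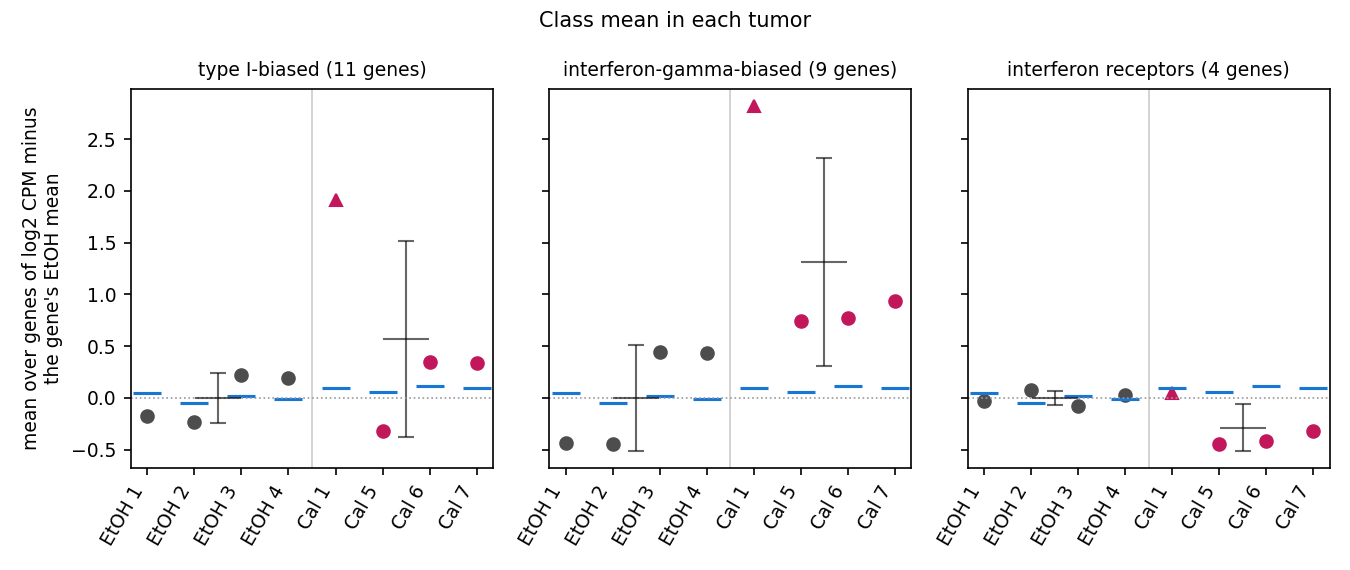
Class mean in each tumor (points, red for calcipotriol, triangle for calcipotriol replicate 1) as the mean over genes of log2 CPM minus the gene's EtOH mean, with the group mean and SD (n = 4 tumors) in black and the mean over all genes tested as blue dashes. The interferon-gamma-biased means of the calcipotriol-treated tumors (0.74 to 2.82) are above the EtOH range, the type I-biased means lie near it except for replicate 1, and the receptor means of replicates 5, 6 and 7 are below it.

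Without calcipotriol replicate 1 the classes kept this order, with a type I-biased mean of 0.12 ± 0.38 and an interferon-gamma-biased mean of 0.82 ± 0.11 (SD over replicates 5, 6 and 7). The low Oas2 value of replicate 5 is part of the type I-biased mean and its SD. The receptor mean was 0.04, -0.45, -0.42 and -0.32 in the calcipotriol-treated tumors and between -0.07 and 0.08 with EtOH. Replicate 1, the tumor with the highest induced genes, was thus within the EtOH range for receptors and the other 3 were below it.

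**Figure D4:**
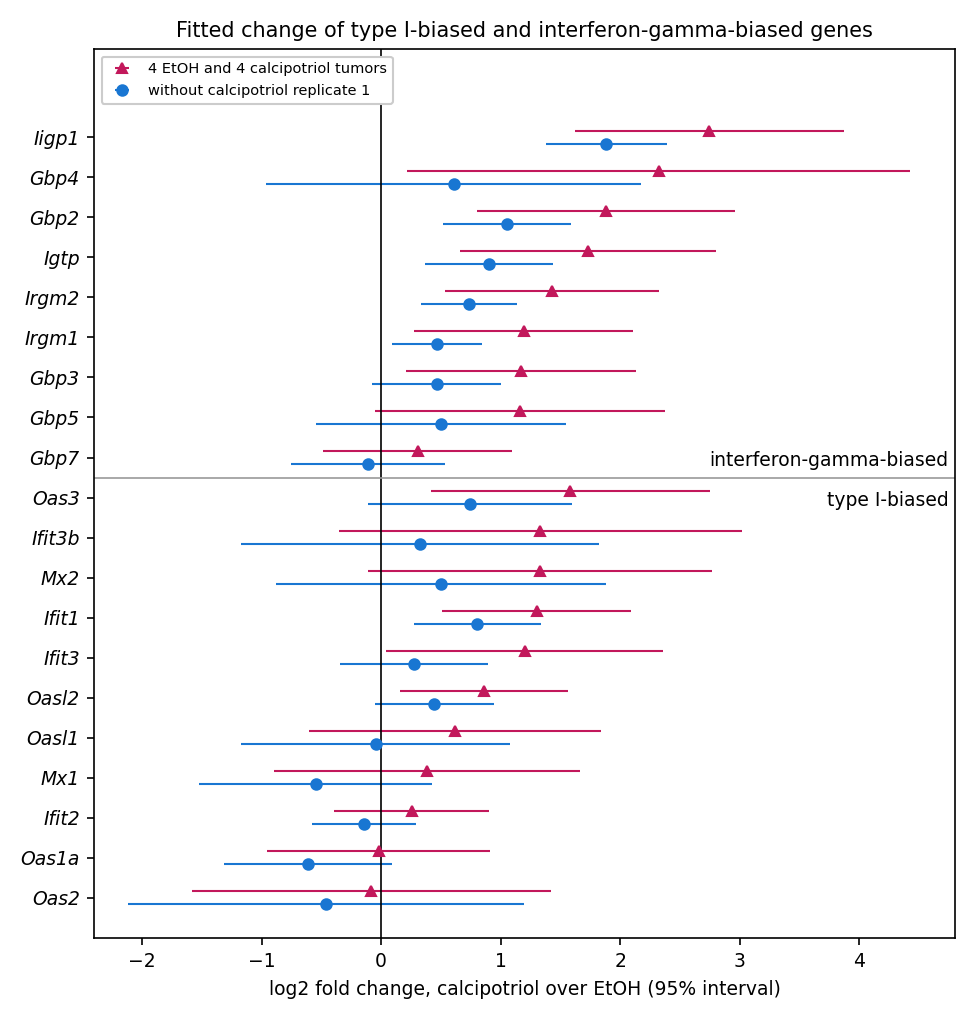
Fitted log2 fold change (horizontal axis, calcipotriol over EtOH) of the 11 type I-biased and 9 interferon-gamma-biased genes with 95% intervals, from all 8 tumors (triangles) and without calcipotriol replicate 1 (circles). Leaving out replicate 1 lowers every estimate, and the intervals of Iigp1, Gbp2, Igtp, Irgm2, Irgm1 and Ifit1 then still lie above 0.

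None of the 12 mixed induced genes was called by edgeR, with 3 higher at an unadjusted p under 0.05 (against 8.56% of genes), while DESeq2 called Usp18 and Rtp4 (against 2.18%). Their median log2 fold change was 0.57, or 0.17 without calcipotriol replicate 1. Usp18, the protease that removes ISG15 and dampens type I receptor signalling, was at 3.11, 3.26, 4.82 and 7.54 CPM with EtOH and 26.7, 6.44, 10.9 and 12.5 CPM with calcipotriol. Among calcipotriol-treated tumors, replicate 5 alone lay within the EtOH range, and the log2 fold change was 1.59 (SE 0.45, adjusted p = 0.0872), and 1.08 without replicate 1. Rtp4, an interferon-induced antiviral gene, was at 7.39, 8.57, 9.84 and 11.2 CPM with EtOH and 36.4, 10.6, 15.8 and 18.7 CPM with calcipotriol, with a log2 fold change of 1.14 (SE 0.34, adjusted p = 0.106) that was 0.70 without replicate 1. Cmpk2, a mitochondrial nucleotide kinase, was at 3.41, 2.48, 4.5 and 2.29 CPM with EtOH and 17, 3.93, 4.81 and 6.1 CPM with calcipotriol. Its log2 fold change of 1.33 (SE 0.48, adjusted p = 0.175) was 0.64 without replicate 1. Trim30a, a negative regulator of inflammatory signalling, had the lowest fitted value of the group, at 11.6, 17.4, 24.1 and 19.4 CPM with EtOH and 19.5, 10.5, 16.3 and 15.5 CPM with calcipotriol. Its log2 fold change was -0.23 (SE 0.25, adjusted p = 0.685), and -0.36 without replicate 1. Isg15, a ubiquitin-like modifier whose promoter stretch is printed and which was added after its values were seen, was at 7.69, 6.77, 9.24 and 13.9 CPM with EtOH and 42.3, 8.08, 13.6 and 10.3 CPM with calcipotriol. In Isg15, replicate 1 alone was far above the EtOH range, and the log2 fold change of 0.98 (SE 0.49, adjusted p = 0.314) was 0.18 without it. With Isg15 among the remaining 8 genes, log2 fold changes ran from 0.22 to 1.47. Among them Rsad2, which encodes the antiviral protein viperin, was picked out after its values were seen. Its level in calcipotriol replicates 5, 6 and 7 (4.98, 5.19 and 5.3 CPM) was below every EtOH-treated tumor (6.13, 9.78, 6.93 and 7.5 CPM) while replicate 1 was at 19.8 CPM, and its log2 fold change of 0.22 was -0.56 without replicate 1.

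Levels per kilobase of exon set the members in order. Over the 44 genes that passed the filter, the mean with EtOH ran from 0.321 CPM per kb for Oas3 to 78.3 for Bst2, which encodes tetherin. The receptor chains lay at 13.1 to 25 CPM per kb. On this scale Iigp1 was at 2.36 with EtOH and 15.9 with calcipotriol, or 8.72 over replicates 5, 6 and 7. Gbp2 was at 14.7 with EtOH and 54.3 with calcipotriol, or 30.5 over replicates 5, 6 and 7. Ifit3 was at 8.995 with EtOH and 20.7 with calcipotriol, or 10.9 over replicates 5, 6 and 7.

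Calcipotriol replicate 1 stood above the other tumors across the set. Its level was the highest of the 8 tumors for 41 of 44 members (93.2%), against 12.6% of genes tested. The exceptions were Ifnar1, Ifngr1 and Trim30a. Its ratio to the next highest calcipotriol-treated tumor had a median of 2.48 over the members, 3.47 in the interferon-gamma-biased and 2.71 in the type I-biased class. With it left out, the groups still did not overlap for 9 higher members (20.5%) and 2 lower members, against 11.0% and 12.0% of genes. The EtOH-treated tumors were split as well, since EtOH replicates 3 and 4 were both above 1 and 2 for 29 of 44 members and 8 of 9 interferon-gamma-biased genes, against 29.3% of genes.

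Other genes of the pathway, from lists of known members, held 2 calls. Of 24 other signalling genes tested, 1 was called higher and none lower, against 1.07% and 0.948% of all genes tested, with a median log2 fold change of -0.03. The called gene was Nlrc5, the transactivator of MHC class I genes, at 4.96, 4.87, 3.93 and 4.85 CPM with EtOH and 33.1, 14.5, 15.3 and 13.8 CPM with calcipotriol, with a log2 fold change of 2.04 (SE 0.31, adjusted p = 0.0105), or 1.64 (SE 0.21, adjusted p = 0.00207) without calcipotriol replicate 1. Irf8, a myeloid factor, fell by less than the fold minimum, at -0.81 (SE 0.17, adjusted p = 0.0334) on the log2 scale, or -0.997 without replicate 1. Of 26 other interferon-gamma-induced genes tested, 1 was called higher and none lower, with a median of 0.80 (0.18 without replicate 1). This was Gbp9, at 10.7, 9.83, 10.2 and 8.16 CPM with EtOH and 46.2, 14.7, 24.8 and 24.3 CPM with calcipotriol, with a log2 fold change of 1.5 (SE 0.30, adjusted p = 0.0306), or 1.13 without replicate 1. Gbp9 overlaps the member Gbp4 on the same strand. The 39 other type I-induced genes tested held no call in either direction by edgeR. At an unadjusted p under 0.05, 5 were higher (12.8%) and 2 lower (5.13%), against 8.56% and 9.84% of all genes tested. The median of these 39 was 0.18 with and -0.13 without calcipotriol replicate 1. In all 3 lists, without that tumor, 3 of 89 genes were called higher and 3 lower, against 1.62% and 2.7% of all genes tested. The order of medians, interferon-gamma-induced above type I-induced, was that of the 2 member classes.

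Markers of cells that make or answer interferon were read in the same tumors. The 19 T and NK cell markers summed to 6.42, 5.99, 3.2 and 3.66 CPM with EtOH and 36.7, 13, 10.8 and 11.4 CPM with calcipotriol. Every calcipotriol-treated tumor was above the EtOH range, and replicate 1 was highest, as for the interferon-gamma-biased class. Within the EtOH group the orders were opposite. There the marker sums were higher in replicates 1 and 2, and the class means were higher in replicates 3 and 4. Of the 19 markers, 9 had enough counts for a test, and edgeR called none, against 1.07% of genes called higher. All 9 had a positive log2 fold change, or 7 without calcipotriol replicate 1. At an unadjusted p under 0.05, 3 were higher, against 8.56% of genes. The groups did not overlap for 2 of the 9, against 6.32% of genes. Among the 19, Cd5 and Ncr1 were the only 2 with 0 counts in every EtOH-treated tumor. Reads were found for 13, 13, 11 and 9 of the 19 with EtOH and for 17, 16, 17 and 17 with calcipotriol. Nkg7, a granule gene of cytotoxic cells, had 6, 0, 6 and 2 counts with EtOH and 107, 19, 13 and 8 with calcipotriol. The 14 macrophage and monocyte markers were lower, with a sum of 3574, 3780.2, 4632 and 4712 CPM with EtOH and 2710.5, 1712, 1479 and 1263 CPM with calcipotriol. In that list 13 of 14 had a negative log2 fold change and 3 fell and were called (Csf1r, Adgre1 and Lyz2), against 0.948% of genes. Without calcipotriol replicate 1, 10 were called lower, against 2.7% of genes. The 1 positive log2 fold change was 1.77, with an unadjusted p under 0.05, and the 1 positive value without replicate 1 was 1.95. Replicate 1 had the highest sum of the calcipotriol-treated tumors, with Csf1r at 219.8 CPM against 72.1 to 74.2 CPM in the other 3. Dendritic cell markers summed to 11.9 to 19.4 CPM with EtOH and 27.8, 7.77, 11.2 and 11.8 CPM with calcipotriol. Of these 13 markers, 5 had enough counts for a test, with 2 positive and 3 negative log2 fold changes. None of the 5 was called, against 1.07% of genes higher and 0.948% lower, and 1 was higher with groups that did not overlap, against 6.32% of genes. Of the 13, 11, 8, 10 and 11 had reads in the EtOH-treated tumors and 10, 9, 11 and 9 in the calcipotriol-treated tumors. From the same list, the plasmacytoid marker Klk1 had 0 counts in every tumor, and Siglech had 0 counts in every calcipotriol-treated tumor. The other plasmacytoid markers of the list, Ccr9, Cox6a2 and Pacsin1, had reads in calcipotriol replicate 6. The part of these cells in the interferon values was not tested.

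**Figure D5:**
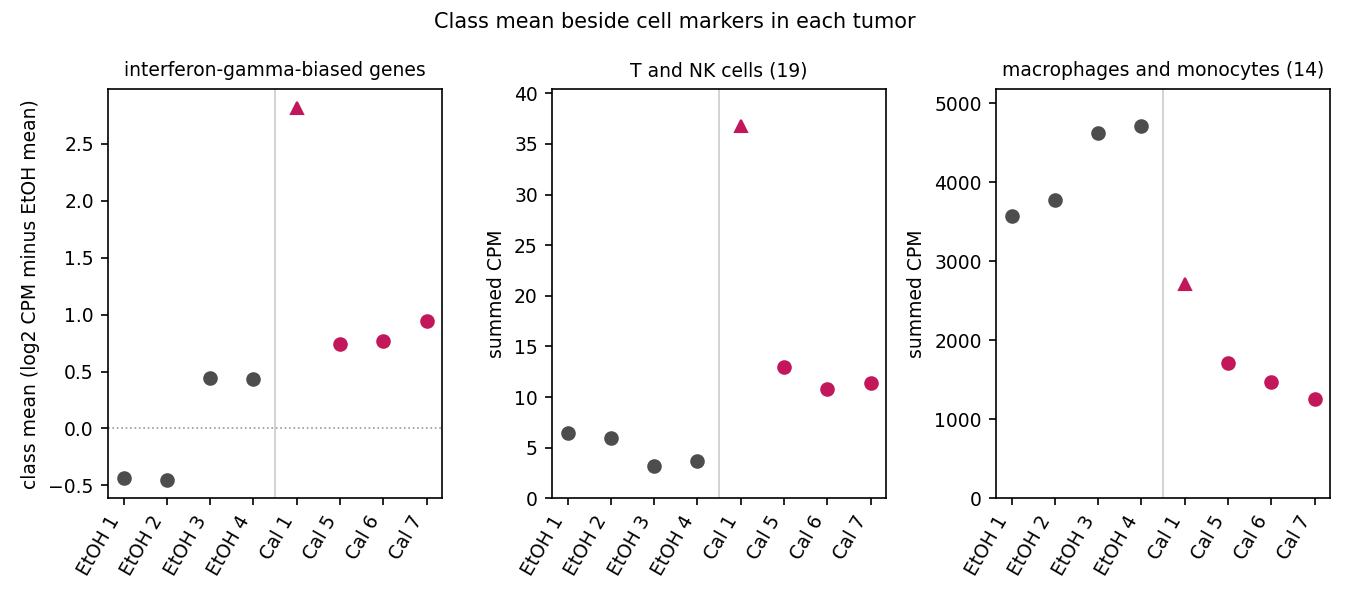
Class mean of the 9 interferon-gamma-biased genes (left) beside the summed CPM of 19 T and NK cell markers (middle) and 14 macrophage and monocyte markers (right) in each tumor, with EtOH in gray, calcipotriol in red and calcipotriol replicate 1 as a triangle. The first 2 panels are highest in replicate 1 and higher in all calcipotriol-treated tumors than with EtOH, and the third is lower in all calcipotriol-treated tumors. Within EtOH, replicates 3 and 4 are above 1 and 2 in the left panel and below them in the middle panel.

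Other lists were read beside the split of the EtOH-treated tumors. Endothelial markers summed to 406, 416, 176 and 177 CPM with EtOH and 70.2 to 129.7 CPM with calcipotriol, and erythroid markers to 5598, 5838, 3511 and 3459.7 and 821, 435, 609 and 532 CPM. Adipocyte markers summed to 0.292, 0.487, 34.8 and 36 CPM with EtOH and 1.83, 27.7, 21.3 and 13.7 CPM with calcipotriol, low in calcipotriol replicate 1 and in EtOH replicates 1 and 2. Skeletal muscle markers summed to 2.3, 2.92, 9.13 and 7.33 CPM with calcipotriol. Over all 8 tumors, fibroblast markers summed to 3867 to 6794 CPM, epithelial markers to 604 to 1322 CPM and neutrophil markers to 31.8 to 153 CPM, with calcipotriol replicate 1 highest in none of the 3. B cell markers were highest in that tumor, at 5.52 CPM against 0.685 to 3.84 CPM in the others. The part of these cells and tissues in the interferon values was not tested.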

How the data were processed

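RNA was measured in 8 PyMt mammary tumors, 4 treated with calcipotriol and 4 with EtOH. Per the labels, libraries were made with a NEBNext Ultra RNA kit and sequenced on an Illumina instrument; the submitters' processing notes name STAR 2.5.3, RSEM 1.3.1, DESeq2 1.24.0 and GRCm38. The values deposited by the authors are estimated counts per gene (Ensembl identifiers), not normalized and not whole in every cell, and they were rounded to whole numbers here, although whole counts had been assumed when the tests were laid out. No strand setting is given in the sources used here, so overlapping and antisense genes cannot be told apart.

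Symbols and positions were taken from GENCODE M21, which matched 52133 of 55414 identifiers. Genes were filtered with filterByExpr by group, scaled by TMM and tested with edgeR 4.0.16 (R 4.3.3; glmQLFit and glmQLFTest, calcipotriol against EtOH, no covariates), with Benjamini-Hochberg adjustment over 14458 genes. The biological coefficient of variation was 0.347. CPM used TMM library sizes, log2 CPM a prior count of 2, and intervals are at 95%. DESeq2 1.42.0, limma-voom (limma 3.58.1), other scalings and filters, other class members and leaving out each tumor were alternatives. The 2 genes removed by the filter were given an exact permutation test (scipy 1.17.1). On simulated data with 200 of 14287 genes changed by 2 on the log2 scale between calcipotriol and EtOH, edgeR recovered 188 with 7 false calls, limma-voom 185 with 8, and DESeq2 188 with 25. The simulated counts had the same dispersion of 0.12 for every gene and no outlying tumor. Recovery of the members, where calcipotriol replicate 1 stood apart, is therefore not measured by it.

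Depth was 19685419 to 25084713 counts per tumor, and 3 counts correspond to 0.120 to 0.152 CPM. Sharing between genes was measured as the share of a gene's 50-base transcript stretches found in another gene. The genes, classes and lists were chosen with earlier results of these data known. Members were described by name where the unadjusted p was under 0.05 or the groups did not overlap, where they were ligands or receptors, or where their log2 fold change was the largest or smallest of their role, and other pathway genes where they were called. Stat2, Ifih1, Dhx58, Gbp5, Isg15, Rsad2 and Irf8 fall outside that rule and were added after their values were seen. Cell markers named singly, such as Nkg7, were not chosen by that rule either.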

Additional observations from a re-analysis of the deposited data

Results flagged for a closer look

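In 9 of 56 groups of 4 tumors, 1 tumor lay far from the other 3, by the gap to its nearest neighbour divided by the range of the group (over Dixon's critical value for 4 samples). Chance alone flags about 1 group in 20, or 2.8 of 56, where groups are independent and not chosen by their values. Here most genes were named by their values in these same tumors, and they are not independent of each other. The class mean also contains flagged genes. The number flagged can therefore not be read against that rate. In 7 of the 9 the distant tumor was calcipotriol replicate 1, which was higher than the others. There the gap was 0.915 of the range for Zbp1, 0.870 for Gbp4, 0.938 for Irgm1, 0.873 for Irgm2, 0.880 for Igtp and 0.908 for Iigp1, all on log2 CPM, and 0.904 for the mean of the interferon-gamma-biased class. For Irf1, EtOH replicate 2 was lower than the other EtOH-treated tumors, with a gap of 0.883 of the range. For Irf9, EtOH replicate 4 was higher than the other 3, with a gap of 0.947.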

How the results depend on the processing

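Calls depended on the test, the filter on low counts and single tumors, and 291 to 292 genes were called under the scalings tried. Against 292 genes called in all, 458 were called with no filter on low counts, 640 with DESeq2, and 113 to 642 with each tumor left out. Against 1 member called higher, there were 7 with no filter (Gbp2, Ifit1, Igtp, Iigp1, Irgm2, Usp18 and Zbp1), 10 with DESeq2 and 0 to 2 with each tumor left out. At an adjusted p under 0.05 with any fold there was 1 member, against 7 with no filter, 11 with DESeq2 and 0 to 4 with each tumor left out. No member was called lower in any of these fits, with 1 lower at an unadjusted p under 0.05 in edgeR. Median log2 fold changes ranged from 0.28 to 1.06 for the type I-biased and from 0.61 to 1.62 for the interferon-gamma-biased class with 1 tumor left out, lowest without calcipotriol replicate 1 for both. Among the genes named by the rule, signs turned with 1 tumor left out for Ifnar2 (-0.22 to 0.032), Oas2 (-0.46 to 0.30) and Gbp7 (-0.11 to 0.50). Of the other members, Dhx58, Ifit2, Oasl1, Mx1, Rsad2 and Xaf1 turned negative without calcipotriol replicate 1. The call of Iigp1 was lost without EtOH replicate 1, 2 or 3, at adjusted p of 0.0673, 0.0695 and 0.0548. Of 362 values of named genes under alternatives, 15 passed the threshold newly under no filter or DESeq2 and none turned sign outside the fits with 1 tumor left out. The class medians under the other choices of members and tests were between 0.74 and 1.09 for the type I-biased and between 1.19 and 1.44 for the interferon-gamma-biased class. The cause of these differences was not tested. No paired analysis was made, because neither the labels nor the study pairs EtOH-treated with calcipotriol-treated tumors. Depth limits Ifng, Ifnb1 and the T and NK cell markers, of which 9 of 19 passed the filter.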
